A study of Mus musculus with 6 samples.

Results

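The genes described here encode the machinery that moves new proteins into the endoplasmic reticulum (ER) and attaches N-linked glycans to them. They were chosen by name as subunits of 6 complexes: 6 proteins of the signal recognition particle (SRP), 2 of the SRP receptor, 6 of the Sec61 channel with Sec62 and Sec63, 4 of the translocon-associated protein complex (TRAP), 5 of signal peptidase and 9 of oligosaccharyltransferase (OST). All 32 were found among the 22609 gene symbols of the deposited count table, and all 32 passed the filter on low counts, with at least 346 counts in every library. Condyles came from CD-1 mice at postnatal day 7, with no treatment or genetic change given in the labels. Cells of the articular zone, the surface layer, and of the mature zone, the chondrocyte layer under it, were told apart by morphology and cut out by laser, and sections were pooled into each sample. Values exist for 3 articular zone libraries (replicates 2, 3 and 4) and 2 mature zone libraries (replicates 2 and 3). Mature zone replicate 4 is labelled as having mapped poorly and was not analysed here. The labels call the samples independent biological replicates, and the number of animals behind a pool is not stated, so the p-values measure the spread between these pools.

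Proteins bound for the cell surface or the matrix carry a signal sequence, which SRP recognises as the chain leaves the ribosome. SRP docks at its receptor in the ER membrane, and the ribosome is handed to the Sec61 channel, where TRAP assists the passage of the chain, signal peptidase removes the signal sequence and OST transfers a preformed glycan to asparagine residues. Cartilage cells secrete collagens and proteoglycans in bulk and use this machinery for nearly all of their matrix. SRP also contains an RNA without a poly(A) tail, which poly(A)-selected libraries do not measure.

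Total counts were 15449883 to 18884685 in the articular zone libraries and 15555620 to 16302047 in the mature zone libraries. Of the cartilage genes used to check the labels, Acan was lower in the articular zone (edgeR quasi-likelihood adjusted p = 0.00670), Col2a1 did not pass (edgeR quasi-likelihood adjusted p = 0.0896) although its levels lay far apart, and the articular marker Prg4 was nearly absent. Acan (aggrecan) averaged 1037 ± 125 CPM (counts scaled to the library size after TMM) in the articular zone and 3633 ± 586 CPM in the mature zone (SD, n = 3 and n = 2), and Col2a1 (type II collagen) averaged 334 ± 255 and 15776 ± 7094 CPM. Prg4, which encodes the lubricin of joint surfaces, averaged 1.80 ± 1.09 and 0.361 ± 0.511 CPM. Col10a1 (type X collagen), deposited in the hypertrophic zone, did not pass (edgeR quasi-likelihood adjusted p = 0.0975). It was at 0.0577, 0.316 and 0.553 CPM in articular zone replicates 2, 3 and 4. In mature zone replicates 2 and 3 it was at 1.77 and 27.6 CPM, so the mature zone libraries lay far apart. Libraries stood apart in markers of other cells. The 8 skeletal muscle genes summed to 1065, 36.8 and 16.8 CPM in articular zone replicates 2, 3 and 4 and to 893 and 66.0 CPM in mature zone replicates 2 and 3, so the muscle signal followed replicate 2 and not the zone. The 6 endothelial genes summed to 10.6 to 110 CPM in the articular zone and 0.143 to 17.5 CPM in the mature zone, with Emcn, an endothelial sialomucin, at 0 in both mature zone libraries. The 8 macrophage and osteoclast genes summed to 389 to 720 against 212 to 425 CPM, and the 7 osteoblast genes to 6221 to 8415 against 7722 to 9945 CPM. Ctsk and Col1a1 carried most of these sums, and other markers ran the other way or further apart: Bglap (osteocalcin) averaged 13.7 ± 3.17 CPM in the articular zone and 2.40 ± 2.09 CPM in the mature zone, and Cd68 14.6 ± 12.8 and 1.69 ± 1.84 CPM, and neither passed the test. Of the 7 erythroid genes, 5 had 0 counts in every library, the globin genes among them, and of the 5 plasma cell genes, 2 had 0. The part of these cells in the results was not tested. The fits were repeated without both replicate 2 libraries, which leaves a single mature zone library.

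Most genes of the machinery had fitted values below 0, and few passed the test. Of the 32 genes, 31 had a fitted log2 fold change below 0, articular over mature zone, with a median of -0.65, while 46.5% of all genes tested were below 0 and their median was 0.07. Only Tusc3 was above 0. In CPM, all 3 articular zone libraries were below both mature zone libraries for 27 of the 32 genes, the zones overlapped for 5, and no gene had all articular zone libraries above. Among all 13119 genes tested, 17.6% had every articular zone library below every mature zone library. Shares over all genes include low levels, while the 32 had at least 346 counts in every library. No share at matched levels was computed. The summed level of the 32 genes was 8287, 11311 and 9914 CPM in articular zone replicates 2, 3 and 4, against 15348 and 17783 CPM in mature zone replicates 2 and 3. The mature zone mean was 1.68 times the articular zone mean, and the libraries of the zones did not overlap. In bulk RNA, fewer cells of a type and less RNA per cell cannot be told apart.

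**Figure D1:**
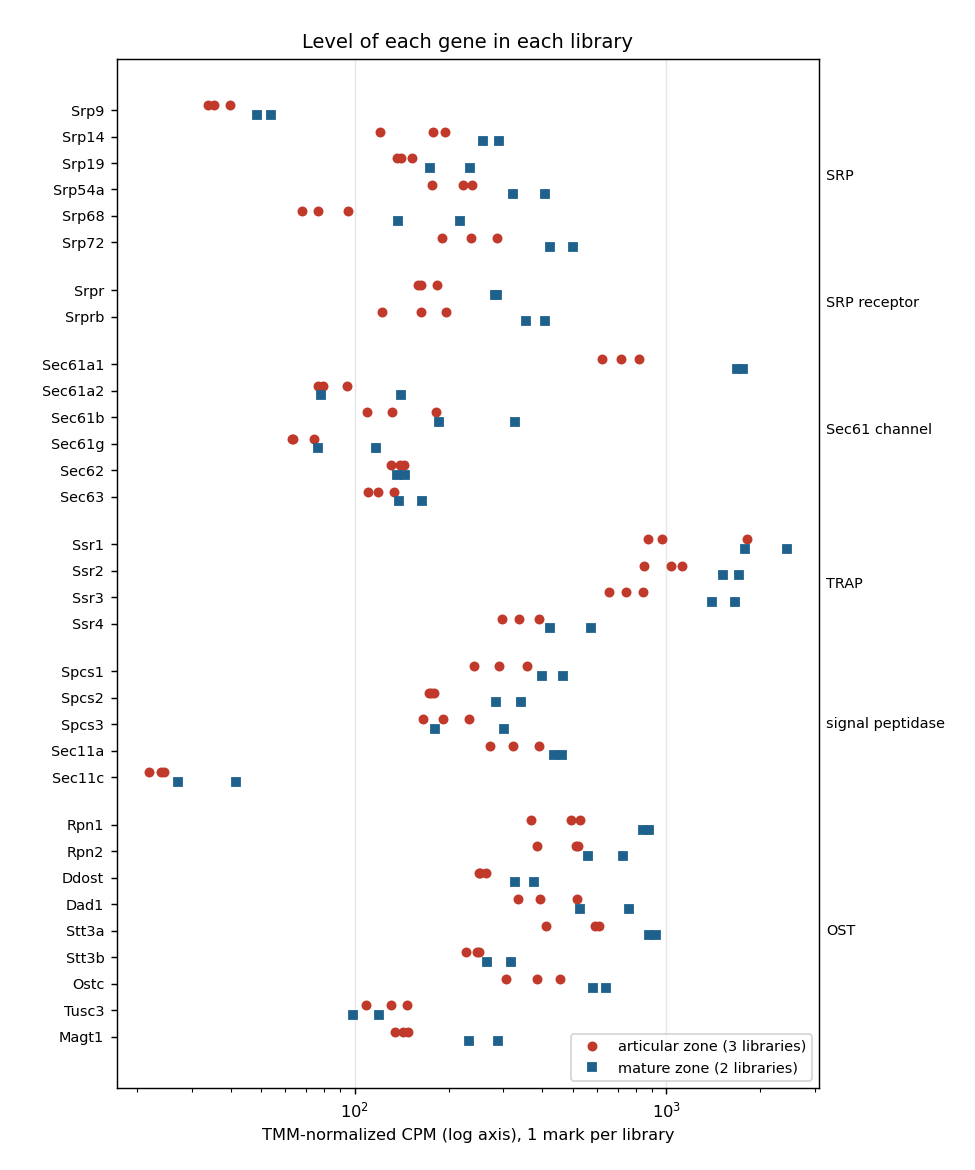
Level of each of the 32 genes in TMM-normalized CPM (log axis), 1 circle for each of 3 articular zone libraries and 1 square for each of 2 mature zone libraries, grouped by complex. The circles lie left of the squares without overlap for 27 of the 32 genes, and the marks overlap for Sec61a2, Sec62, Ssr1, Spcs3 and Tusc3.

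At an adjusted p under 0.05 (edgeR's quasi-likelihood test, Benjamini-Hochberg adjustment over 13119 genes), 3 of the 32 genes, Sec61a1, Ssr3 and Srprb, were lower in the articular zone and none was higher, against 1.85% called lower among all genes. At an unadjusted p under 0.05, 21 of the 32 were lower, against 9.27% of all genes. Another 8 had an adjusted p between 0.05 and 0.1: Srp54a, Srp68, Srp72, Srpr, Ssr2, Spcs2, Rpn1 and Magt1. No share of all genes in that band was computed, so whether 8 is many cannot be read from it. The count of called genes rested on single libraries. Leaving out articular zone replicate 2, 3 or 4 gave 1, 0 and 0. Leaving out mature zone replicate 2 or 3 left a single mature zone library, so only sizes are given for the 32. Their median log2 fold change was then -0.76 and -0.52, so it moved either way from -0.65. The share of all genes called lower in those fits moved as well and was 0.664%, 0.468%, 0.103%, 3.48% and 0.627%. DESeq2 called 14 of the 32 lower and none higher, where it called 5.84% of all genes lower. Without both replicate 2 libraries, which carried the muscle signal, edgeR called 10 of the 32 lower, beside 4.70% of all genes, and the median log2 fold change was -0.68, close to that over all 5 libraries.
The sizes also depended on the scaling. TMM moved the median log2 fold change of all genes by 0.21 relative to CPM per total count. Without TMM, 30 of the 32 genes were still below 0 with a median of -0.45, beside 0.28 for all genes, 2 were called lower (Sec61a1 and Ssr3) beside 1.28% of all genes, and 18 had every articular zone library below both mature zone libraries, beside 12.3% of all genes. Over all genes, edgeR called 150 higher and 243 lower with TMM, and 185 higher and 168 lower without it.

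**Figure D2:**
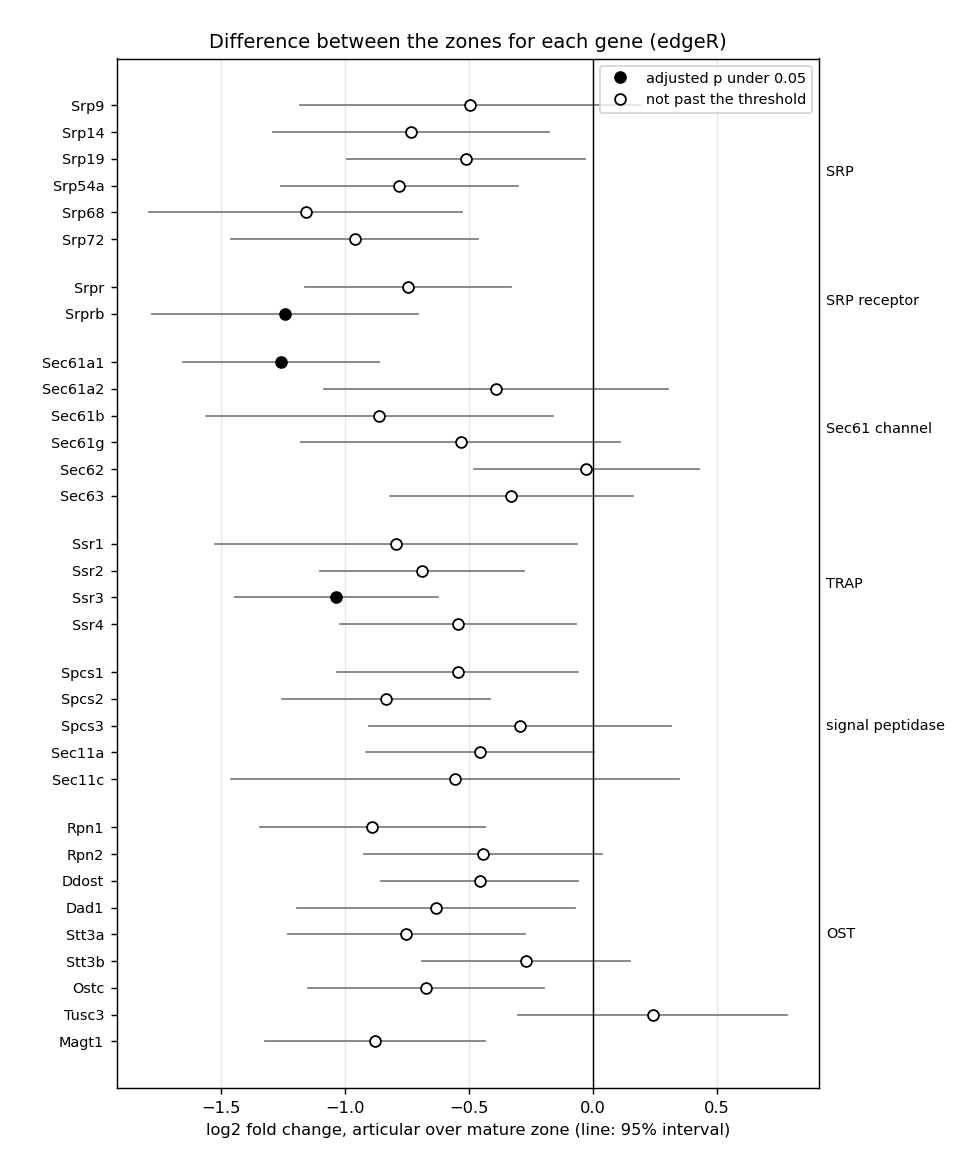
Fitted log2 fold change, articular over mature zone, of each gene with its 95% interval from edgeR. Filled marks, Srprb, Sec61a1 and Ssr3, passed an adjusted p of 0.05, and every mark except that of Tusc3 lies below 0, with Sec62 at -0.03.

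At the channel itself, the subunit that forms the pore had the lowest adjusted p of the 32 genes. Sec61a1 encodes the main form of the alpha subunit (chromosome 6, 88503607 to 88518800, GRCm38). It was at 622, 716 and 816 CPM in articular zone replicates 2, 3 and 4, against 1756 and 1683 CPM in mature zone replicates 2 and 3. Each mature zone library was thus above every articular zone library, and the mature zone mean was 2.39 times that of the articular zone. The log2 fold change was -1.26, with SE 0.17 (edgeR quasi-likelihood adjusted p = 0.0137), and the 95% interval was -1.65 to -0.86. It passed in 15 of 17 other settings, and did not without articular zone replicate 3 (adjusted p = 0.0626) or replicate 4 (adjusted p = 0.0839). Exons of a gene on the other strand overlap 8.16% of its exon length, and no source states whether strand was used in counting.
Sec61b and Sec61g encode the small beta and gamma subunits that sit beside the pore. Sec61b was at 109, 182 and 132 CPM against 187 and 326 CPM (log2 fold change -0.86, SE 0.30, adjusted p = 0.170). Sec61g was at 63.2, 74.3 and 63.1 CPM against 76.5 and 117 CPM (-0.53, SE 0.28, adjusted p = 0.333). Neither passed the test, although their zones did not overlap, and in both genes mature zone replicate 3 lay well above replicate 2. Most of the Sec61b transcript matches another annotated gene, Gm10320, at 97% identity or more, so its reads could be split.
Sec62 and Sec63 serve the channel in moving finished chains, and Sec63 recruits the lumenal chaperone BiP. They differed least. Sec62 was at 131, 144 and 140 CPM against 137 and 145 CPM, with the zones overlapping, a log2 fold change of -0.03 and a 95% interval of -0.48 to 0.43, which leaves room for changes of modest size in either direction. Its sign turned with the scaling and was positive in 8 of 17 other settings. Sec63 was at 110, 134 and 119 CPM against 139 and 165 CPM (-0.33, SE 0.21, adjusted p = 0.450).

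Upstream of the channel, the membrane anchor of the SRP receptor was the other targeting gene past the threshold. Srprb encodes the beta subunit, a GTPase in the ER membrane that holds the alpha subunit (chromosome 9, 103188033 to 103202065). It was at 123, 163 and 197 CPM in articular zone replicates 2, 3 and 4, against 354 and 406 CPM in mature zone replicates 2 and 3. The zones did not overlap, and the log2 fold change was -1.24 with SE 0.23 (edgeR quasi-likelihood adjusted p = 0.0336). It passed in 9 of 17 other settings. The adjusted p was 0.0950, 0.125 and 0.106 when articular zone replicate 2, 3 or 4 was left out and 0.102 for mature zone replicate 3. Another annotated gene, Gm20425, on the same strand overlaps 20.7% of its exon length. Srpr, the alpha subunit that binds SRP, was at 159, 164 and 184 CPM against 286 and 281 CPM (-0.75, SE 0.18, adjusted p = 0.0747). Stretches matching other annotated genes cover 44.5% of its transcript.
The 6 SRP proteins were all below the mature zone in every articular zone library, and none passed the test, with adjusted p from 0.0612 to 0.412. Srp68 and Srp72, which bind the SRP RNA as a pair, had the lowest log2 fold changes of the particle. Srp68 was at 95.3, 67.5 and 76.4 CPM against 138 and 218 CPM (-1.16, SE 0.27, adjusted p = 0.0707). Srp72 was at 190, 236 and 287 CPM against 423 and 502 CPM (-0.96, SE 0.22, adjusted p = 0.0612). Srp54a, a copy of the gene for the GTPase that binds the signal sequence, was at 177, 222 and 238 CPM against 323 and 407 CPM (-0.78, SE 0.21, adjusted p = 0.0941). Copies close in sequence, Srp54b and Srp54c, match 80.9% of its transcript, so the split of reads among them is uncertain. Their fitted values were -1.01 (SE 0.24) and -0.69 (SE 0.26), in the same direction as Srp54a. Srp9 and Srp14, which form the Alu-binding end that slows elongation, were at log2 values of -0.49 (SE 0.30) and -0.73 (SE 0.24), and Srp19, needed for assembly, -0.51 (SE 0.21).

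Promoter sequence is shown for the called genes Srprb and Ssr3, and for Srpr as the partner of Srprb in the receptor, since genes of this pathway are textbook targets of the unfolded protein response. The table of RefSeq promoters (GRCm38.p6) matched 24 of the 32 genes; Srp19, Srp68, Sec61a1, Ssr2, Spcs3, Sec11c, Ostc and Tusc3 had no entry. Each line gives the 250 bases before the annotated start, 5′ to 3′ on the strand of the gene, with capitals for ACGTG on either strand, the core shared by several elements that bind bZIP factors such as XBP1.
Srprb, chr9:103202066-103202315, minus strand: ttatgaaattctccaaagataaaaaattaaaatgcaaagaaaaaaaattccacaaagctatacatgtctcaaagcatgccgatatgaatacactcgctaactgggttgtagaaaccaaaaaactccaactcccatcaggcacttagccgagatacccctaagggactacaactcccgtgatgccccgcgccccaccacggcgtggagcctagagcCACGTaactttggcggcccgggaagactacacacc
Ssr3, chr3:65392554-65392803, minus strand: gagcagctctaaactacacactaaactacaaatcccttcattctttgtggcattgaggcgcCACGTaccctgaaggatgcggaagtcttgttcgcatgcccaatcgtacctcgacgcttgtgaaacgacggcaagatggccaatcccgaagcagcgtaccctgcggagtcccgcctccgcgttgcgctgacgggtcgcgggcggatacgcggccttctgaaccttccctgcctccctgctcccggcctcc
Srpr, chr9:35210953-35211202, plus strand: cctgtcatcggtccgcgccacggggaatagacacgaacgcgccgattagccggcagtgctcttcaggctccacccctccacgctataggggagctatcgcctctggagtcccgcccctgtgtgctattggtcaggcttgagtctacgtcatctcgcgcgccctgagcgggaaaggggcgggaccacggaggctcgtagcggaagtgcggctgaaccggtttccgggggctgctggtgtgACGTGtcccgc
The core began 35 bases before the start of Srprb, 189 before that of Ssr3 and 11 before that of Srpr. It was found on either strand in 11 of the 24 genes, and in 16.6% of all 32851 promoters in the table. The longer TGACGTG, which contains the core, was found in Srpr alone among the 24 and in 1.65% of all promoters. Neither the ER stress response element (ERSE) nor its second form (ERSE-II), on either strand, matched a window of the 24, and they matched 0.113% and 0.0304% of all promoters. TGACGTGG matched none of the 24 and 0.563% of all. A match describes letters and does not show binding.

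TRAP holds on to chains as they enter and binds close to OST. Its mean summed level in CPM was the highest of the 6 complexes in each zone, although OST exceeded it in articular zone replicate 4. CPM are not scaled for gene length, and Ssr1 of TRAP has 10431 exon bases, so this order is one of reads. TRAP also carried the remaining called gene. Ssr3 encodes its gamma subunit (chromosome 3, 65379657 to 65392553). It was at 652, 842 and 740 CPM in articular zone replicates 2, 3 and 4, against 1399 and 1653 CPM in mature zone replicates 2 and 3. No articular zone library came near the mature zone, and the log2 fold change was -1.04 with SE 0.18 (edgeR quasi-likelihood adjusted p = 0.0253). It passed in 9 of 17 other settings. The adjusted p was 0.0815, 0.0652 and 0.155 when articular zone replicate 2, 3 or 4 was left out, 0.0845 for mature zone replicate 3 and 0.0729 with the replicate number as a block.
The other TRAP subunits had smaller differences. Ssr2, the beta subunit, was at 844, 1123 and 1036 CPM against 1519 and 1709 CPM (-0.69, SE 0.18, adjusted p = 0.0878). Ssr4, the delta subunit, was at 297, 389 and 336 CPM against 422 and 572 CPM (-0.54, SE 0.21, adjusted p = 0.195). Ssr1, the alpha subunit, was at 874, 1814 and 971 CPM against 1791 and 2438 CPM (-0.79, SE 0.32, adjusted p = 0.212). Its zones overlapped through articular zone replicate 3, which lay above mature zone replicate 2.

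Signal peptidase, which cuts off the signal sequence, differed least of the complexes in its summed level. The sum was 882, 1175 and 1003 CPM in articular zone replicates 2, 3 and 4, against 1529 and 1412 CPM in mature zone replicates 2 and 3, so the mature zone mean was 1.44 times that of the articular zone. Spcs2, an accessory subunit, was nearest to the threshold, at 179, 175 and 173 CPM against 342 and 285 CPM (-0.83, SE 0.18, adjusted p = 0.0547). Its articular zone libraries lay close together and below both mature zone libraries. Spcs1 came to -0.54 (SE 0.21) and Sec11a, the main catalytic subunit, to -0.46 (SE 0.20), without overlap of the zones. Sec11c, the other catalytic subunit, was low at 23.9, 21.9 and 24.5 CPM against 27.2 and 41.6 CPM (-0.56, SE 0.39, adjusted p = 0.491). Spcs3, a subunit needed for cleavage, overlapped, at 165, 232 and 192 CPM against 300 and 182 CPM (-0.29, SE 0.26), and mature zone replicate 3 lay below articular zone replicates 3 and 4.

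**Figure D3:**
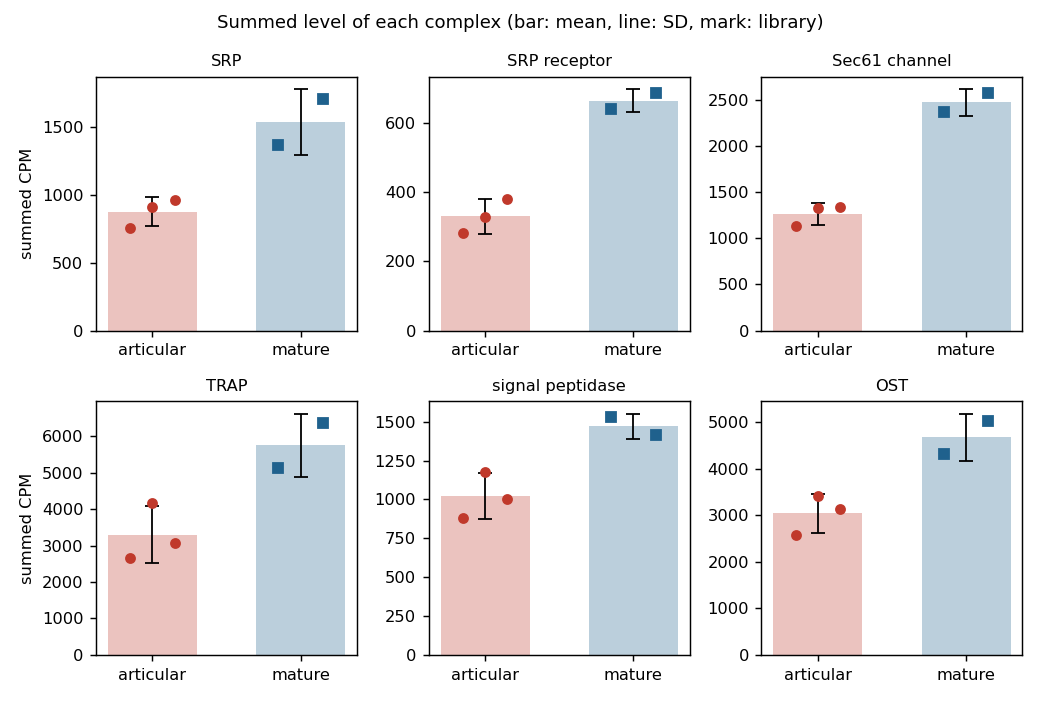
Summed TMM-normalized CPM of each complex, articular zone left and mature zone right, with the mean (bar), SD (line) and each library (mark; n = 3 and n = 2). The articular zone libraries lie below the mature zone libraries in all 6 complexes, with mature zone means 1.44 times (signal peptidase) to 2.01 times (SRP receptor) those of the articular zone.

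None of the 9 OST genes chosen here passed the test, and fitted values were below 0 for 8 of them and above 0 for Tusc3. Ost4, an OST subunit counted with the partners below, was lower (-1.30, SE 0.27, edgeR quasi-likelihood adjusted p = 0.0483). Rpn1 encodes ribophorin I, a scaffold subunit, and was at 369, 530 and 496 CPM in articular zone replicates 2, 3 and 4, against 840 and 882 CPM in mature zone replicates 2 and 3 (-0.89, SE 0.20, adjusted p = 0.0577). Stt3a, the catalytic subunit of the form of OST that works at the channel during synthesis, was at 409, 610 and 589 CPM against 881 and 924 CPM (-0.75, SE 0.21, adjusted p = 0.102). Ostc, which links that form to the channel, was at 305, 457 and 386 CPM against 581 and 638 CPM (-0.67, SE 0.21, adjusted p = 0.128). In these 3 genes articular zone replicate 2 was the lowest library and both mature zone libraries were above the rest. Stt3b, the catalytic subunit of the form that glycosylates sites skipped during synthesis, was at 246, 227 and 251 CPM against 265 and 317 CPM, a log2 fold change of -0.27 (95% interval -0.69 to 0.15). Dad1, Ddost and Rpn2, shared subunits, came to -0.63 (SE 0.24), -0.46 (SE 0.17) and -0.44 (SE 0.21), each without overlap of the zones.
Magt1 and Tusc3 encode alternative oxidoreductase subunits of the Stt3b form. Magt1 was at 148, 143 and 135 CPM in articular zone replicates 2, 3 and 4, against 233 and 288 CPM in mature zone replicates 2 and 3 (-0.88, SE 0.19, adjusted p = 0.0567). Tusc3 was at 109, 147 and 130 CPM against 98.4 and 120 CPM (0.24, SE 0.24, adjusted p = 0.650), and its 95% interval ran from -0.30 to 0.78. Magt1 thus had its zones apart and Tusc3 had them overlapping in CPM. In the deposited FPKM, Tusc3 was at 22.3, 32.5 and 28.3 against 18.4 and 15.5, and the zones did not overlap.

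Subunits that take the same place in a complex can be compared within a library, free of any scaling between libraries. Of 4 such pairs, 3 had ratios that did not overlap between the zones. Among single genes in CPM, 17.6% of all tested lay lower in the articular zone without overlap and 21.1% higher. No such share was computed for ratios. Reads of Magt1 per read of Tusc3 were 1.36, 0.968 and 1.03 in articular zone replicates 2, 3 and 4, against 2.37 and 2.41 in mature zone replicates 2 and 3. The mean log2 ratio differed by -1.11, articular minus mature zone (exact permutation test, two-sided, p = 0.1, adjusted over 4 pairs p = 0.2), and p = 0.1 is the smallest that 3 against 2 libraries allow. The difference was -1.26 to -1.01 when each library was left out in turn. Reads of Sec61a2, the minor alpha subunit, per read of Sec61a1 were 0.152, 0.111 and 0.0931 against 0.0444 and 0.0835 (difference of 0.93 on the log2 scale, exact permutation test, two-sided, p = 0.1, adjusted p = 0.2). Leaving out mature zone replicate 2 gave a difference of 0.48 and leaving out replicate 3 gave 1.39, with the values for each articular zone library left out between them. Sec61a2 was at 94.6, 79.3 and 76.0 CPM against 77.9 and 141 CPM, with the zones overlapping and a log2 fold change of -0.39 (SE 0.30), so that Sec61a1 was the partner with the larger difference. Exons of Nudt5 on the other strand overlap 19.9% of the exon length of Sec61a2.
Reads of Stt3b per read of Stt3a were 0.602, 0.372 and 0.426 against 0.301 and 0.343, a difference of 0.51 (exact permutation test, two-sided, p = 0.2, adjusted p = 0.267). Articular zone replicate 2 was the highest library, and without it the difference was 0.31. Reads of Sec11c per read of Sec11a were 0.0881, 0.0563 and 0.0759 against 0.0590 and 0.0954, with the zones overlapping and a difference of -0.06 (exact permutation test, two-sided, p = 0.8), whose sign turned when articular zone replicate 3 (0.12) or mature zone replicate 3 (0.29) was left out. None of the 4 pairs can pass 0.05 at this number of libraries.

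**Figure D4:**
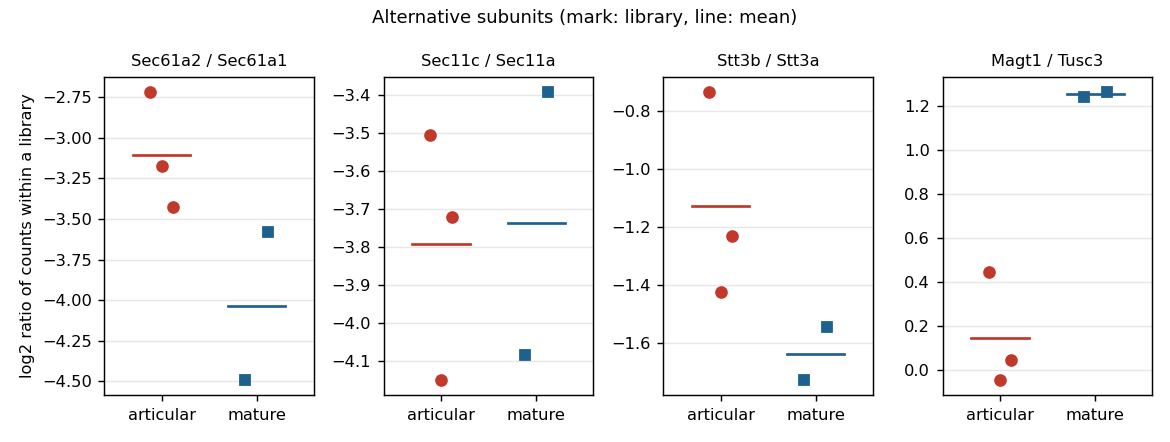
Log2 ratio of counts of alternative subunits within a library, 1 mark per library and a line at the mean of each zone, articular zone left. Magt1/Tusc3 is lower in all 3 articular zone libraries, Sec61a2/Sec61a1 and Stt3b/Stt3a are higher in all 3, and Sec11c/Sec11a overlaps; the 4 panels have separate axes.

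Per length, in FPKM, the levels of the genes spread widely within each complex. Ssr2 was highest, at 627 ± 84.1 FPKM in the articular zone and 885 ± 56.7 FPKM in the mature zone (SD, n = 3 and n = 2), followed by Dad1 at 459 ± 96.9 and 612 ± 68.3 FPKM. Their libraries overlapped in the articular zone and not in the mature zone. Ssr4, Ostc, Spcs1 and Sec61b came next, at means of 149 to 212 FPKM in the articular zone and 225 to 278 FPKM in the mature zone, and in the articular zone they all overlapped each other, while in the mature zone Spcs1 lay below both Ssr4 and Ostc without overlap. Sec61a1 averaged 101 ± 19.4 and 210 ± 34.4 FPKM and Sec61a2 13.8 ± 1.14 and 14.6 ± 3.79 FPKM. Sec61g was left out of the order, since it had 16.9 CPM per FPKM, beside 1.04 for Sec61b, and the gene model length behind its FPKM is not known. In FPKM, which the authors scaled to mapped fragments, 20 of the 32 genes had every articular zone library below both mature zone libraries, 11 overlapped and 1, Tusc3, had every articular zone library above, beside 11.8% below and 23.7% above among all genes tested that have FPKM.
The libraries of a zone also differed across these genes. Articular zone replicate 2 was the lowest articular zone library for 24 of the 32 genes in CPM, beside 34.1% of all genes, and for 26 of the 32 in FPKM, beside 40.7%. Mature zone replicate 3 was above replicate 2 for 27 of the 32 in CPM, beside 45.8% of all genes, but for 12 of the 32 in FPKM, beside 31.5%, so this order depends on the scaling.

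Other genes that work beside these complexes were lower in the articular zone as well, as far as they passed the test, and none was higher. Of 17 other genes, mostly subunits and partners of the channel and of OST, 6 were lower, with a median log2 fold change of -0.84. The list also holds Naca, Btf3 and the Srp54a copies Srp54b and Srp54c, whose reads may be shared with Srp54a. Ccdc47, which takes part in the insertion of membrane proteins, averaged 92.8 ± 18.6 CPM in the articular zone and 256 ± 11.8 CPM in the mature zone (SD, n = 3 and n = 2), with a log2 ratio of -1.47 and SE 0.23 (edgeR quasi-likelihood adjusted p = 0.0186). Serp1, a small protein that stabilises new membrane proteins at the channel, was at 179 ± 5.44 and 430 ± 42.8 CPM (-1.26, SE 0.17, adjusted p = 0.0139). Tram1, a membrane protein beside the channel, and Ckap4, of the rough ER sheets, came to -0.99 (SE 0.18) and -1.03 (SE 0.17). The 4 genes named here are those with the smallest p among the 6.
Of 23 genes that build the glycan on its lipid carrier dolichol before OST transfers it, 2 were lower, with a median of -0.32 and 16 of 23 below 0. Both are mannosyltransferases of the ER lumen. Alg9 averaged 16.2 ± 2.25 CPM in the articular zone and 80.4 ± 6.72 CPM in the mature zone (SD, n = 3 and n = 2; log2 ratio -2.31, SE 0.31, edgeR quasi-likelihood adjusted p = 0.0137). Alg3 was at 30.7 ± 4.79 and 97.9 ± 8.32 CPM (-1.67, SE 0.29, adjusted p = 0.0252). Their log2 fold changes were further from 0 than that of any of the 32 genes. Of 15 genes that trim and check new glycans, 2 were lower and all 15 were below 0, with a median of -0.83: Calr, the chaperone calreticulin (-0.78, SE 0.16), and Lman1, a cargo receptor for glycoproteins (-0.94, SE 0.19). Of 16 matched genes of tail-anchored insertion and the ER membrane complex, none passed the test and 13 were below 0, with a median of -0.48.
Neighbouring steps of secretion were counted in the same way, and no difference from them was tested. Of 17 ER lumen chaperones and disulfide isomerases, P4hb (-0.82, SE 0.17) was lower and 15 were below 0, with a median of -0.67. Of 22 matched genes of COPII, COPI and early Golgi transport, not all of them coat subunits, 5 were lower and 21 were below 0. Their median was -0.70. The 4 with the smallest p were Sec24a (-1.69, SE 0.24), Preb (-1.94, SE 0.29), Arf4 (-0.90, SE 0.15) and Golph3 (-1.46, SE 0.27). The share called lower among all genes was 1.85%, as given above for the same test. Without any single articular zone library, or without mature zone replicate 3, no gene of these 6 lists passed. Without mature zone replicate 2, 9, 3, 1, 1, 4 and 4 genes of these lists were lower, in the order given here, and 1 gene of the dolichol list was higher.

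**Figure D5:**
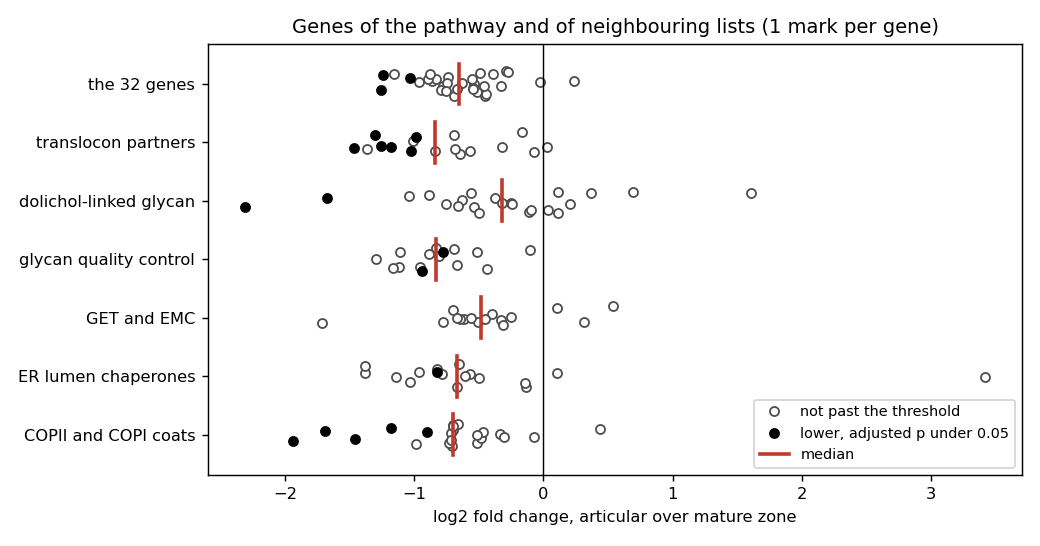
Log2 fold change, articular over mature zone, of each tested gene of the 32 and of 6 further lists (1 mark per gene, filled where lower at an adjusted p under 0.05, red line at the median). The medians run from -0.84 (translocon partners) to -0.32 (dolichol-linked glycan), with the 32 genes at -0.65.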

How the data were processed

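RNA of laser-captured articular and mature zone cells was sequenced from single-end poly(A) libraries. The authors trimmed reads with Trimmomatic 0.32 and mapped them to mm10 with SHRiMP. No source states the counting tool or its use of strand. The deposited counts are raw reads per gene symbol. The deposited FPKM were scaled by the authors for gene model length and mapped fragments, with 0.1 as the lowest value. The table of the authors' own DESeq comparison (means, fold changes, p-values) was not used.

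Genes reaching 10 counts in 2 or more libraries (13119 of 22609) were tested with edgeR 4.0.16 in R 4.3.3 (TMM, estimateDisp, glmQLFit robust, glmQLFTest, zone alone, 3 residual degrees of freedom), with Benjamini-Hochberg adjustment over all of them and 0.05 as the threshold. CPM were divided by the effective library size. SE is the log2 fold change over the root of the F statistic. The fit was tested on simulated data with known changes. Ratios of paired subunits used log2 counts with 0.5 added and an exact permutation test over libraries. Matches to other genes of at least 50 bases at 97% identity were found with blastn in GENCODE M21 transcripts. Of 192 list genes, 190 were matched, 13 of them by older symbols. Alternatives were other normalizations, filters, tests (limma 3.58.1, DESeq2 1.42.0), FPKM, a replicate block and each library left out.

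All 32 genes are described, and up to 4 called genes of each other list by smallest p, with Ost4 added as a subunit of OST. Genes and lists were chosen with earlier results of these data known.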

Additional observations from a re-analysis of the deposited data

How the results depend on the processing

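The direction held more firmly than the calls. Over 17 other settings for each of the 32 genes, 544 values in all, 475 kept direction and side of the threshold, 37 newly passed, 18 no longer passed and 14 changed sign. The sign changes were small values: Srp9 came to 0.068 in limma on log2(FPKM + 1), filtered or not, and 0.077 on log2(FPKM + 0.1), and Spcs3 to 0.23 without both replicate 2 libraries. Sec62 came to 0.069 with upper-quartile normalization, 0.022 with at least 10 counts in every library, 0.19 on log2(FPKM + 1), filtered or not, 0.21 on log2(FPKM + 0.1) and 0.18 without TMM. With a library left out, Sec61a2 ran from -0.75 to 0.10, Spcs3 from -0.61 to 0.12 and Sec62 from -0.065 to 0.015. The number of the 32 genes called lower was 3. It was 8 with no low count filter and with at least 10 counts in every library, 7 with limma-voom and 14 with DESeq2. Over all genes, calls lower rose as well, from 243 to 342, 336, 325 and 766 in that order of settings. The number of the 32 was 1 in each limma fit on FPKM and 0 at an adjusted p under 0.01. With an articular zone library left out it was 0 or 1. With mature zone replicate 2 or 3 left out, the median log2 fold change of the 32 was -0.76 and -0.52, beside -0.65 in the main fit. With the replicate block the number called lower was 2 (Srprb and Sec61a1). No label says that a number marks a shared animal, batch or day. The deviations of the 2 shared numbers correlated at 0.14 and 0.13, which says little, since the deviations of 2 mature zone libraries mirror each other, and the muscle genes were high in both replicate 2 libraries, so whether the numbers pair the samples is not settled. None of these settings called a gene of the 32 higher.

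Over all genes, 243 lower and 150 higher became 145 and 81 with the block, 766 and 1036 with DESeq2, 567 and 1024 without both replicate 2 libraries, 27 and 5 at an adjusted p under 0.01, and 13 to 446 and 0 to 843 with a library left out. Calls lower were 146 on log2(FPKM + 0.1). Calls higher were 251 with no low count filter, 230 with at least 10 counts in every library, 86 with limma-voom, and 280 (filtered) and 495 (unfiltered) on log2(FPKM + 1). Log2 ratios of complex sums, articular over mature zone, moved to -0.50 (SRP), -0.72 (Sec61), -0.32 (signal peptidase) and -0.40 (OST) in FPKM and to -0.76 (Sec61) in CPM without TMM. The Sec11c/Sec11a difference ran from -0.40 to 0.29 with a library left out. Of 468 counts over the other lists, 378 stayed within 1.5 times, but many of these were 0 in the main fit and stayed 0. Counts above 0 moved more. With the replicate block and with DESeq2, the 6 translocon partners called lower became 2 and 8. The 2 of the dolichol list became 0 and 3, and the 2 of glycan quality control 0 and 11. The 1 ER lumen chaperone became 0 and 8, and the 5 of the COPII and COPI list 1 and 15. The fits without TMM and without both replicate 2 libraries were chosen after seeing the data. The causes were not tested. Where a mature zone library was left out, the other was taken to vary as articular zone libraries do, and 3 against 2 libraries limit every p.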
